A study of Homo sapiens with 54 samples.

Results

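The genes described here are 43 genes of DNA replication licensing and of the replication fork, chosen by symbol from the 27470 genes of the deposited table, and all 43 were found in it. They were followed through 18 conditions of a pair of triple negative breast cancer (TNBC) cell lines, SUM1315, which carries a BRCA1 mutation, and MDA-MB-468, which is wild type for BRCA1, with 3 libraries per condition and 54 libraries in all. Parental SUM1315 cells were untreated, or were treated overnight with 8 µM olaparib, with 2 or 4 µM cisplatin (CDDP), or with olaparib and CDDP together. The olaparib resistant (OlaR) SUM1315 cells had been selected by exposure to rising olaparib and were kept in 25 µM olaparib throughout, alone or with 2 or 4 µM CDDP. Parental MDA-MB-468 cells were untreated or treated with 3 µM olaparib, 1 or 2.5 µM CDDP, or both, and OlaR MDA-MB-468 cells were kept in 15 µM olaparib, alone or with 1 or 2.5 µM CDDP. The higher dose in MDA-MB-468 follows the sample titles, since the description of the series gives it as 2 µM. Each line had 1 OlaR derivative, and every OlaR condition held olaparib at a higher dose than the parental olaparib conditions. Olaparib inhibits PARP enzymes, and CDDP crosslinks DNA.

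Transcripts were read from their 3′ ends, and the values are adjusted read counts, which are reads per gene brought by the authors to a common library size of 5585170. The depth behind them was 4977284 to 7540920 reads per parental SUM1315 library and 3446613 to 4665505 per OlaR SUM1315 library, and 5574767 to 9268162 and 2070301 to 4676284 for MDA-MB-468. A member had 7 to 3461 reads in a library, so that counting error was larger for UHRF1, the member with the lowest level in untreated cells of both lines, than for the others. The labels do not state that the 3 libraries of a condition came from separate cultures, so the p-values measure the spread between these libraries. Of the epithelial markers, KRT18 was present in both lines, at 231 to 598 adjusted reads in SUM1315 and 584 to 833 in MDA-MB-468, but EPCAM was at 2631 to 3793 in MDA-MB-468 and at most at 4.61 in SUM1315. The mesenchymal marker VIM was at 7929 to 13246 adjusted reads in SUM1315 and at 7.99 to 53.8 in MDA-MB-468. The leukocyte marker PTPRC was at most at 6.97 adjusted reads in any library, while SUM1315 libraries held 132 to 796 of the fibroblast marker COL1A1 and 44.95 to 208 of the endothelial marker PECAM1. ESR1, a receptor that TNBC lines hold low, was at 24.9 to 221 adjusted reads in MDA-MB-468 and at most at 25.6 in SUM1315, and PGR and ERBB2 were at most at 3.09 and 63.3 in any library. In SUM1315, replicate 3 of the untreated and of the olaparib libraries stood apart from the other replicates. Chi-square divided by its degrees of freedom over genes reached 20.1 and 8.73 there. Replicates 2 and 3 of the 2 µM CDDP libraries differed from each other, with 22.1. The median over all pairs of replicates was 3.23. In bulk RNA, fewer cells in S phase and less RNA of these genes per cell cannot be told apart.

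Before S phase, the origin recognition complex (ORC), CDC6 and CDT1 load the MCM2-7 helicase onto DNA, a step called licensing that geminin (GMNN) blocks once S phase begins. The DBF4-dependent kinase then fires the licensed origins by recruiting CDC45 and the GINS complex to the helicase. Polymerases, the PCNA clamp and its RFC loader copy the strands at the fork. Many of these genes are transcribed by E2F factors as cells pass from G1 into S phase, which is why their transcripts are used as a readout of S phase.

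Promoter sequences are shown because these genes moved together, and words of the E2F consensus are marked because E2F factors are known to act on such genes. RefSeq promoter windows (GRCh38.p14), each from 250 bases before to 50 bases after a transcript start, were matched for 38 of the 43 members. Of these, 9 had several windows, and the first listed was used. It sat on the outermost start of the RefSeq gene for 34 members, and inside the gene for CDC45 (by 454 bases), ORC1 (5080 bases), UHRF1 (6421 bases) and PRIM2 (93265 bases), so that for these 4 the sequence before the outermost start was not the one counted. Members without an entry were MCM4, MCM5, GINS4, POLD3 and FAM111B. The words TTTCCCGC, TTTCGCGC, TTTGCCGC and TTTGGCGC were searched on both strands. At least 1 word was in 18 of the 38 member windows (47.4%), against 908 of 27305 first listed windows of the same length (3.33%). With every listed window of a gene counted, a word was found for 21 of the 38 members (55.3%) and 1090 of the 27305 genes (3.99%). CDC6 and CDT1 are shown as the members that CDDP raised in every comparison, MCM6 as a member it raised in few, and CDC45 as the member with the largest rise in SUM1315. Capitals mark the words, and overlapping words run together.
CDC6 promoter, chr17:40287629-40287928, plus strand: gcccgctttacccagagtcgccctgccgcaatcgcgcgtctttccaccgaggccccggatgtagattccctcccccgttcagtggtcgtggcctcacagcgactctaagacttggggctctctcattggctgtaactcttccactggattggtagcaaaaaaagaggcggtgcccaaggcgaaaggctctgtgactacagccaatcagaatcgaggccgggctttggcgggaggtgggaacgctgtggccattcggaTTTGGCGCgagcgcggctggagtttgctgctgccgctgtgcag
CDT1 promoter, chr16:88803539-88803838, plus strand: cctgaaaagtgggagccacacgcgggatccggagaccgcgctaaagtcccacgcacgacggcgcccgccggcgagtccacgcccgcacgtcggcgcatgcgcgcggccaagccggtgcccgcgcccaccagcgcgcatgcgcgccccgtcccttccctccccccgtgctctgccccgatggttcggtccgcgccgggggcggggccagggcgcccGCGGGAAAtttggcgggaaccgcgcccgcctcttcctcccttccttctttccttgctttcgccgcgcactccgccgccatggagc
MCM6 promoter, chr2:135876394-135876693, minus strand: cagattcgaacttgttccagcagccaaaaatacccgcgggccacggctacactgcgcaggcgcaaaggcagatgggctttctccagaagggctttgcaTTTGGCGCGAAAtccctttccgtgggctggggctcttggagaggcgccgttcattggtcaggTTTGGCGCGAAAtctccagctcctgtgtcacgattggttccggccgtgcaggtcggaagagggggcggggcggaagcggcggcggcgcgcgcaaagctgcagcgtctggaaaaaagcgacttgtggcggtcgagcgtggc
CDC45 promoter, chr22:19479670-19479969, plus strand: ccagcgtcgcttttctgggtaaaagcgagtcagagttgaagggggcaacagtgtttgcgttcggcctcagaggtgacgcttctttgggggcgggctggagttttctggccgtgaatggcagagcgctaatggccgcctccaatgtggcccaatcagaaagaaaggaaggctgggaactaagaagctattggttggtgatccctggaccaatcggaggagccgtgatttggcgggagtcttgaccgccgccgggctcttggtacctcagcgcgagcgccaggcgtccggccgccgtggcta
CDC6 and CDT1 each held 1 word and MCM6 held 4, of which neighbours overlapped, while CDC45 held none in the window shown or in its other listed windows, one of which sat on its outermost start. A match says only that the letters are there.

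Across the 18 conditions the set was lowest in untreated cells and highest with CDDP. The level of each condition was taken as the median over the 43 members of the log2 difference from untreated cells of the same line, with the range over the 3 libraries of the same median taken library by library, in which the value of the condition need not lie. In SUM1315 the median rose through olaparib (0.20, libraries 0.21 to 0.24), olaparib with 2 µM CDDP (0.67, 0.62 to 0.65), olaparib with 4 µM CDDP (0.85, 0.81 to 0.84), OlaR cells (0.95, 0.91 to 1.00) and 2 µM CDDP (1.14, 1.05 to 1.22). OlaR cells with 2 µM CDDP (1.27, 1.25 to 1.29), OlaR cells with 4 µM CDDP (1.30, 1.32 to 1.37) and 4 µM CDDP alone (1.32, 1.27 to 1.36) came last. The libraries of neighbouring SUM1315 conditions in this order did not overlap, except those of OlaR cells with 4 µM CDDP and of 4 µM CDDP alone.

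In MDA-MB-468 the range was smaller. The median was 0.10 with olaparib (libraries 0.05 to 0.14), 0.35 in OlaR cells (0.32 to 0.40), 0.36 with 1 µM CDDP (0.32 to 0.38), 0.44 with olaparib and 1 µM CDDP (0.41 to 0.45) and 0.52 in OlaR cells with 1 µM CDDP (0.49 to 0.51). At 2.5 µM CDDP it was 0.60 with olaparib (0.58 to 0.64), 0.62 in OlaR cells (0.58 to 0.63) and 0.67 alone (0.62 to 0.66). Libraries of these last 3 conditions overlapped each other, as did those of OlaR cells and of 1 µM CDDP. Over all genes tested, the median difference from untreated cells lay between -0.046 and 0.015 in every condition.

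A list of 22 G2/M genes, whose transcripts peak as cells prepare for mitosis, was set beside the members. In SUM1315 the G2/M median stood 0.96 above untreated cells with olaparib, 0.89 with 4 µM CDDP and 0.94 in OlaR cells. The members' medians in these conditions were 0.20, 1.32 and 0.95, so the lists differed with olaparib in this line. The medians of both lists were above those of untreated cells in every other SUM1315 condition. In MDA-MB-468 the lists also parted, and with 2.5 µM CDDP in opposite directions. With olaparib the G2/M median was 0.49 above untreated cells and the members' median 0.10, whereas with 2.5 µM CDDP the G2/M median was -0.35 and the members' median 0.67. The part of the cell cycle in the values of the members was not tested.

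**Figure D1:**
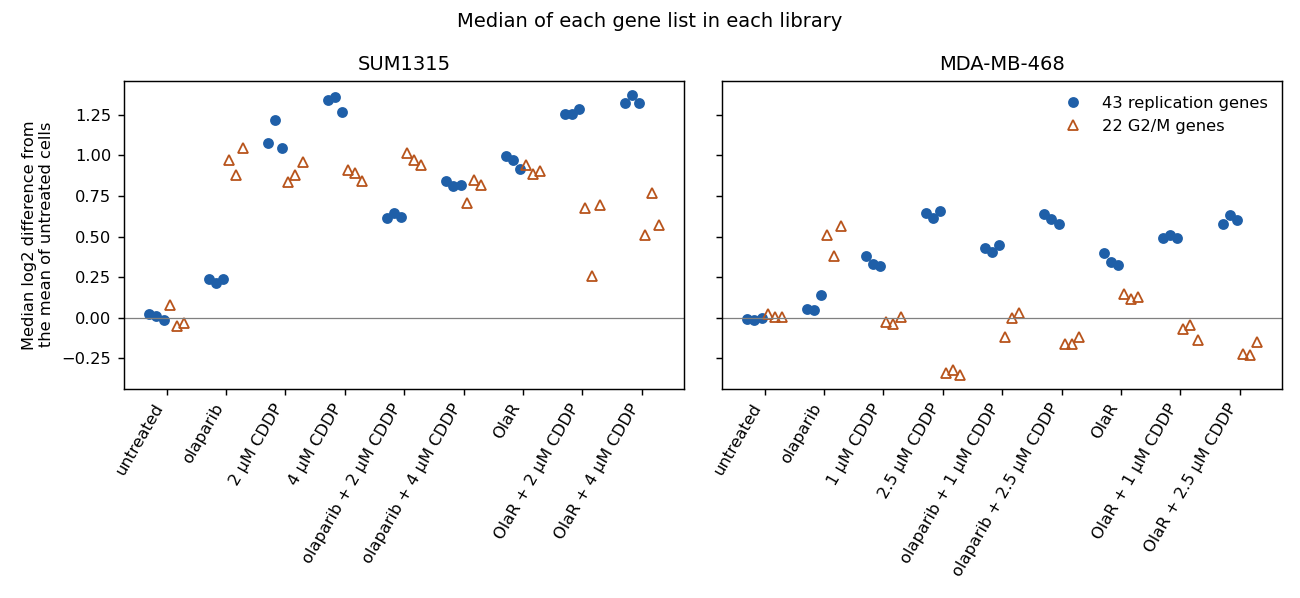
Median log2 difference from the mean of untreated cells, for the 43 replication genes (filled circles) and 22 G2/M genes (open triangles), with 1 point per library in each of the 9 conditions of each line. In SUM1315 the replication genes are near 0.20 with olaparib and 1.32 with 4 µM CDDP, and in MDA-MB-468 the circles with 2.5 µM CDDP lie near 0.67 while the triangles lie near -0.35.

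CDDP alone raised nearly all of the set in SUM1315 and most of it in MDA-MB-468. A member was called higher or lower where limma, fitted to all 27 libraries of the line, gave an adjusted p of at most 0.05, with the adjustment made over the 13133 genes tested for SUM1315 or the 13012 for MDA-MB-468. Fold changes are differences of log2(adjusted read count + 1), given as log2 ± SE with 3 libraries per group, a scale that understates changes of genes with few reads. In SUM1315, 39 of 43 members rose with 2 µM CDDP and none fell, against 19.4% and 14.5% of all genes tested. With 4 µM CDDP, 40 rose and none fell, against 22.2% and 21.7%, and the members' median log2 fold change was 1.32 against -0.003 over all genes. In MDA-MB-468, 30 rose and 1 fell with 1 µM CDDP, against 10.6% and 9.41%, and 38 rose and 1 fell with 2.5 µM CDDP, against 13.3% and 11.8%, with a median of 0.67. With the further demand of a 2-fold change, as for DEGs, 31 members rose with the higher dose in SUM1315 (7.24% of all genes) and 7 in MDA-MB-468 (1.64%). The doses differed between the lines, and the difference between them was not tested. The mean was higher at the higher dose for 36 members in SUM1315 and 40 in MDA-MB-468. Both doses were compared with the same untreated libraries.

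**Figure D2:**
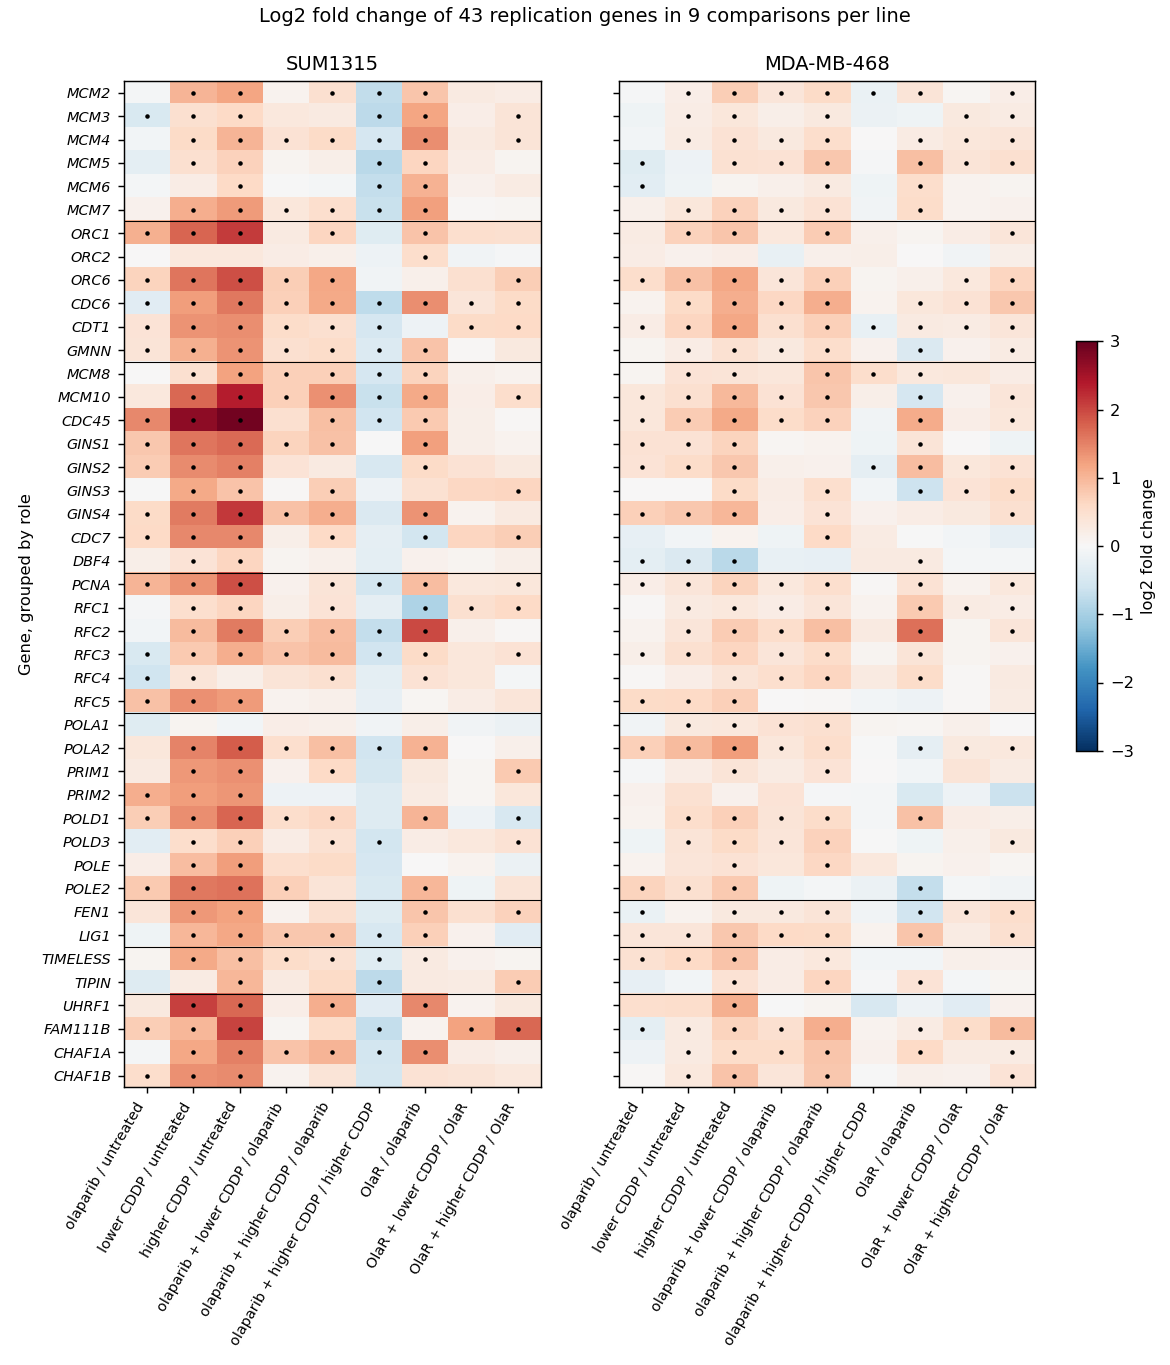
Log2 fold change (colour) of the 43 replication genes (rows, with lines between roles) in 9 comparisons (columns) in each line. Black points mark an adjusted p at or under 0.05, and the columns of CDDP against untreated cells carry points for 39 and 40 genes in SUM1315 and for 31 and 39 in MDA-MB-468.

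Of the 6 subunits of the MCM2-7 helicase, which unwinds DNA at the fork, all 6 rose with 4 µM CDDP in SUM1315, by a median of 0.85, the lowest median of the roles. MCM2 stood at 669, 818 and 531 adjusted reads in the untreated libraries and at 1470.2, 1574 and 1473 with 4 µM CDDP (log2 fold change 1.18 ± 0.13). MCM4 stood at 448, 438 and 548 adjusted reads in the untreated libraries and at 929, 986 and 979 with 4 µM CDDP (log2 fold change 1.02 ± 0.09). MCM7 stood at 722, 704 and 730.2 adjusted reads in the untreated libraries and at 1795, 1800.3 and 1674 with 4 µM CDDP (log2 fold change 1.29 ± 0.08). None of these groups overlapped. MCM3 and MCM6 changed by less, with MCM3 at 574, 611 and 746 adjusted reads untreated and 963, 985 and 969 with 4 µM CDDP (0.60 ± 0.10). MCM6 stood at 279.8, 250.5 and 242 and 356, 386 and 424 (0.59 ± 0.12). MCM5 changed by 0.69 ± 0.13. In MDA-MB-468, 5 subunits rose with 2.5 µM CDDP, from 0.33 ± 0.07 for MCM3 to 0.73 ± 0.06 for MCM2, and MCM6 did not pass the test (0.09 ± 0.08, adjusted p = 0.443).

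Among the genes that load the helicase, 5 of 6 rose in each line with the higher dose, and ORC2, a subunit of the origin recognition complex, passed in neither line. ORC1, the largest subunit of the complex, stood at 33.3, 38.2 and 20.8 adjusted reads in the untreated libraries and at 101, 150.2 and 148 with 4 µM CDDP (log2 fold change 2.10 ± 0.21). ORC6, its smallest subunit, stood at 140.3, 168 and 93.4 adjusted reads in the untreated libraries and at 558, 494 and 450.5 with 4 µM CDDP (log2 fold change 1.93 ± 0.18). Both were above untreated cells in all 3 libraries. CDC6, the loading ATPase, stood at 322, 319.8 and 329.9 adjusted reads in the untreated libraries and at 978, 1029.7 and 898 with 4 µM CDDP (log2 fold change 1.58 ± 0.09). It was already at 755, 796 and 769 with 2 µM (1.25 ± 0.09, adjusted p = 1.2e-12). No CDDP library of CDC6 overlapped with the untreated ones. CDT1, its partner in loading, stood at 294, 299 and 268 adjusted reads in the untreated libraries and at 841, 737 and 694 with 4 µM CDDP (log2 fold change 1.39 ± 0.12). GMNN, which holds CDT1 back, stood at 244, 195 and 180.1 adjusted reads in the untreated libraries and at 566, 526 and 469.9 with 4 µM CDDP (log2 fold change 1.34 ± 0.12). So the loading factors and their inhibitor rose together. In MDA-MB-468, CDC6 stood at 436, 451 and 379.7 adjusted reads untreated and at 849, 915 and 914 with 2.5 µM CDDP (1.08 ± 0.07, adjusted p = 4.1e-17). CDT1 went from 596, 679 and 584 to 1319.6, 1401 and 1453 (1.17 ± 0.07, adjusted p = 1e-18). ORC6 went from 282, 332 and 279 to 636, 703 and 649 (1.16 ± 0.08) and was among the 2 members with the smallest p already at 1 µM CDDP (572, 504 and 579 adjusted reads, 0.89 ± 0.08, adjusted p = 1.3e-12). The groups did not overlap for any of these 3 genes.

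The firing genes held the largest single rises in SUM1315. CDC45, which joins the helicase to make it active, stood at 41.3, 50.6 and 32.2 adjusted reads in the untreated libraries and at 281, 302 and 348 with 4 µM CDDP (log2 fold change 2.89 ± 0.17). With 2 µM CDDP it was already at 288, 262 and 247 (2.67 ± 0.17, adjusted p = 8.9e-14). MCM10, which helps the loaded helicase to open DNA, stood at 139.9, 87.1 and 114 adjusted reads in the untreated libraries and at 537, 607 and 575 with 4 µM CDDP (log2 fold change 2.35 ± 0.15). These were the 2 largest log2 fold changes of the set. The 4 GINS subunits, which complete the active helicase with CDC45, rose as well. GINS1 stood at 87.7, 109 and 104 adjusted reads in the untreated libraries and at 351, 299 and 325 with 4 µM CDDP (log2 fold change 1.69 ± 0.12). GINS2 stood at 78.5, 70.4 and 55.98 adjusted reads in the untreated libraries and at 181, 188 and 221 with 4 µM CDDP (log2 fold change 1.52 ± 0.21). GINS4 stood at 41.9, 64.03 and 51.7 adjusted reads in the untreated libraries and at 234, 223 and 224 with 4 µM CDDP (log2 fold change 2.11 ± 0.17). Every CDDP library of these 3 subunits lay above every untreated library. GINS3 stood at 106, 108 and 78.8 adjusted reads untreated, 204, 269 and 178 with 2 µM CDDP (1.14 ± 0.21) and 138, 201 and 194 with 4 µM (0.85 ± 0.21). MCM8, a relative of the MCM2-7 subunits that acts in repair, stood at 166, 192 and 239.7 adjusted reads in the untreated libraries and at 458, 453 and 455 with 4 µM CDDP (log2 fold change 1.21 ± 0.14). At 2 µM CDDP, MCM8, DBF4 and RFC4 passed the test although their libraries overlapped with the untreated ones.

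The kinase genes were called differently in the lines, a difference that was not tested. CDC7, the catalytic subunit, stood at 89.5, 64.2 and 63.2 adjusted reads in the untreated libraries and at 231, 186 and 176 with 4 µM CDDP (log2 fold change 1.45 ± 0.19). In MDA-MB-468 CDC7 did not pass the test (0.10 ± 0.17, adjusted p = 0.736). DBF4, its activating subunit, was the only member that fell with CDDP alone. It stood at 387, 352 and 347 adjusted reads in untreated MDA-MB-468 cells, at 262, 253 and 289 with 1 µM CDDP (-0.43 ± 0.11, adjusted p = 0.00229) and at 207, 180.2 and 235 with 2.5 µM (-0.81 ± 0.11, adjusted p = 5.8e-08). In SUM1315 it rose from 203, 141 and 153 to 277, 239 and 252 with 4 µM (0.64 ± 0.16). Thus DBF4 was called in opposite directions in the lines at both doses. Of the other firing genes, CDC45 (119, 119 and 142 untreated, 289, 282 and 267 with 2.5 µM CDDP, 1.14 ± 0.12) and GINS4 (146, 169 and 184 and 338, 334 and 328, 1.00 ± 0.10) changed most in MDA-MB-468.

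PCNA, the sliding clamp that holds polymerases on DNA, had one of the 2 smallest p of the set in SUM1315. Its 3 libraries were at 434, 390.1 and 304 adjusted reads untreated, at 894, 868 and 1081 with 2 µM CDDP and at 1424, 1476 and 1388 with 4 µM (1.94 ± 0.11, adjusted p = 6.5e-16). The clamp loader has 5 subunits, of which 4 rose with 4 µM CDDP. RFC2 stood at 87.2, 65.4 and 105 adjusted reads in the untreated libraries and at 232, 265 and 255 with 4 µM CDDP (log2 fold change 1.56 ± 0.17). RFC3 stood at 295, 273 and 356 adjusted reads in the untreated libraries and at 606, 725 and 619 with 4 µM CDDP (log2 fold change 1.08 ± 0.12). RFC5 stood at 131, 122 and 111 adjusted reads in the untreated libraries and at 292, 294 and 293 with 4 µM CDDP (log2 fold change 1.27 ± 0.15). Groups of these subunits did not overlap. RFC1, the large subunit, rose by 0.64 ± 0.12. RFC4 stood at 396, 419 and 391 untreated and 439.8, 519 and 419 with 4 µM CDDP (0.18 ± 0.13, adjusted p = 0.245). In MDA-MB-468 all 6 clamp and loader genes rose with 2.5 µM CDDP, from 0.31 ± 0.07 for RFC1 to 0.75 ± 0.11 for RFC2.

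Of the 8 polymerase and primase genes, 7 rose with the higher dose in each line. POLA2, the second subunit of polymerase alpha, which starts new strands, stood at 78.1, 70.5 and 87.8 adjusted reads in the untreated libraries and at 334, 252 and 258 with 4 µM CDDP (log2 fold change 1.82 ± 0.14). PRIM1, the catalytic primase subunit, stood at 142, 117 and 81.95 adjusted reads in the untreated libraries and at 304, 294 and 272 with 4 µM CDDP (log2 fold change 1.38 ± 0.18). PRIM2, the large primase subunit, stood at 21.4, 30.95 and 20.7 adjusted reads in the untreated libraries and at 44.3, 69.7 and 74.7 with 4 µM CDDP (log2 fold change 1.32 ± 0.25). PRIM2 has a near-identical partial copy in the genome, and how its reads were shared is not known. POLD1, the catalytic subunit of lagging strand polymerase delta, stood at 66.4, 66.3 and 79.6 adjusted reads in the untreated libraries and at 233, 229 and 258 with 4 µM CDDP (log2 fold change 1.75 ± 0.15). POLE, that of leading strand polymerase epsilon, stood at 83.3, 99.3 and 98.2 adjusted reads in the untreated libraries and at 263, 215 and 203 with 4 µM CDDP (log2 fold change 1.26 ± 0.19). POLE2, its second subunit, stood at 32.4, 24.9 and 37.2 adjusted reads in the untreated libraries and at 105, 92.2 and 99.9 with 4 µM CDDP (log2 fold change 1.64 ± 0.19). The CDDP libraries of all of these were above the untreated ones. POLD3, a further subunit of polymerase delta, rose by 0.71 ± 0.13, while POLA1, the catalytic subunit of polymerase alpha, did not pass (-0.09 ± 0.16, adjusted p = 0.674). In MDA-MB-468 the order was another, since POLA1 rose by 0.31 ± 0.08 and PRIM2 did not pass (0.13 ± 0.25, adjusted p = 0.769). POLA2 had the largest rise there, from 323, 273 and 245 adjusted reads to 509.7, 564 and 555 with 1 µM CDDP (0.96 ± 0.09, adjusted p = 1e-12) and 661, 656 and 688 with 2.5 µM (1.26 ± 0.09).

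FEN1 and LIG1, the nuclease and ligase that finish Okazaki fragments, rose in SUM1315. FEN1 stood at 622, 639 and 293 adjusted reads in the untreated libraries and at 1021, 1206 and 1152 with 4 µM CDDP (log2 fold change 1.20 ± 0.18). LIG1 stood at 135, 139 and 168 adjusted reads in the untreated libraries and at 374, 287 and 332 with 4 µM CDDP (log2 fold change 1.16 ± 0.15). TIMELESS, which with TIPIN steadies the fork, stood at 311, 304 and 286 untreated and at 640.3, 731 and 609 with 2 µM CDDP (1.13 ± 0.11). The groups were apart in all 3 genes, and TIPIN rose by 0.98 ± 0.20 with 4 µM. The remaining members act on chromatin or are known as S-phase transcripts. UHRF1, which brings maintenance methylation to new DNA, stood at 23.4, 36.02 and 7.41 adjusted reads in the untreated libraries and at 69.8, 73.4 and 51.7 with 4 µM CDDP (log2 fold change 1.73 ± 0.35). CHAF1A, the large subunit of the histone chaperone CAF-1, stood at 260.1, 207 and 229 adjusted reads in the untreated libraries and at 665, 634 and 687 with 4 µM CDDP (log2 fold change 1.51 ± 0.13). CHAF1B, its second subunit, stood at 90.4, 63.2 and 60.1 adjusted reads in the untreated libraries and at 176, 198 and 196 with 4 µM CDDP (log2 fold change 1.42 ± 0.19). All CDDP libraries of these 3 were above the untreated ones. FAM111B, a trypsin-like protease, stood at 57.3, 68.2 and 62.1 adjusted reads in the untreated libraries and at 314, 228 and 238 with 4 µM CDDP (log2 fold change 2.03 ± 0.22). In MDA-MB-468 all 8 of these genes rose with 2.5 µM CDDP, with changes from 0.30 ± 0.06 for FEN1 to 1.06 ± 0.25 for UHRF1. The UHRF1 libraries held 22.8, 44.8 and 68.9 adjusted reads untreated and 88.7, 101 and 75.1 with CDDP, and its call was lost without replicate 1 of the untreated libraries (0.65).

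With the higher dose, 36 of the 43 members (83.7%) rose in both lines, against 6.25% of the 11755 genes tested in both. They were 90.0% of the members that rose in SUM1315 and 94.7% of those in MDA-MB-468, shares to be read beside the 88.4% and 93.0% of all 43 members that rose in MDA-MB-468 and in SUM1315. The G2/M list did not do the same in both lines, with 19 of 22 genes higher and 1 lower in SUM1315 and 2 higher and 12 lower in MDA-MB-468. Without replicate 3 of the untreated SUM1315 libraries, 40 members rose with 4 µM CDDP and 37 with 2 µM. Without replicate 2 of the 2 µM CDDP libraries 39 rose with that dose, and without replicate 3 of them 36.

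**Figure D3:**
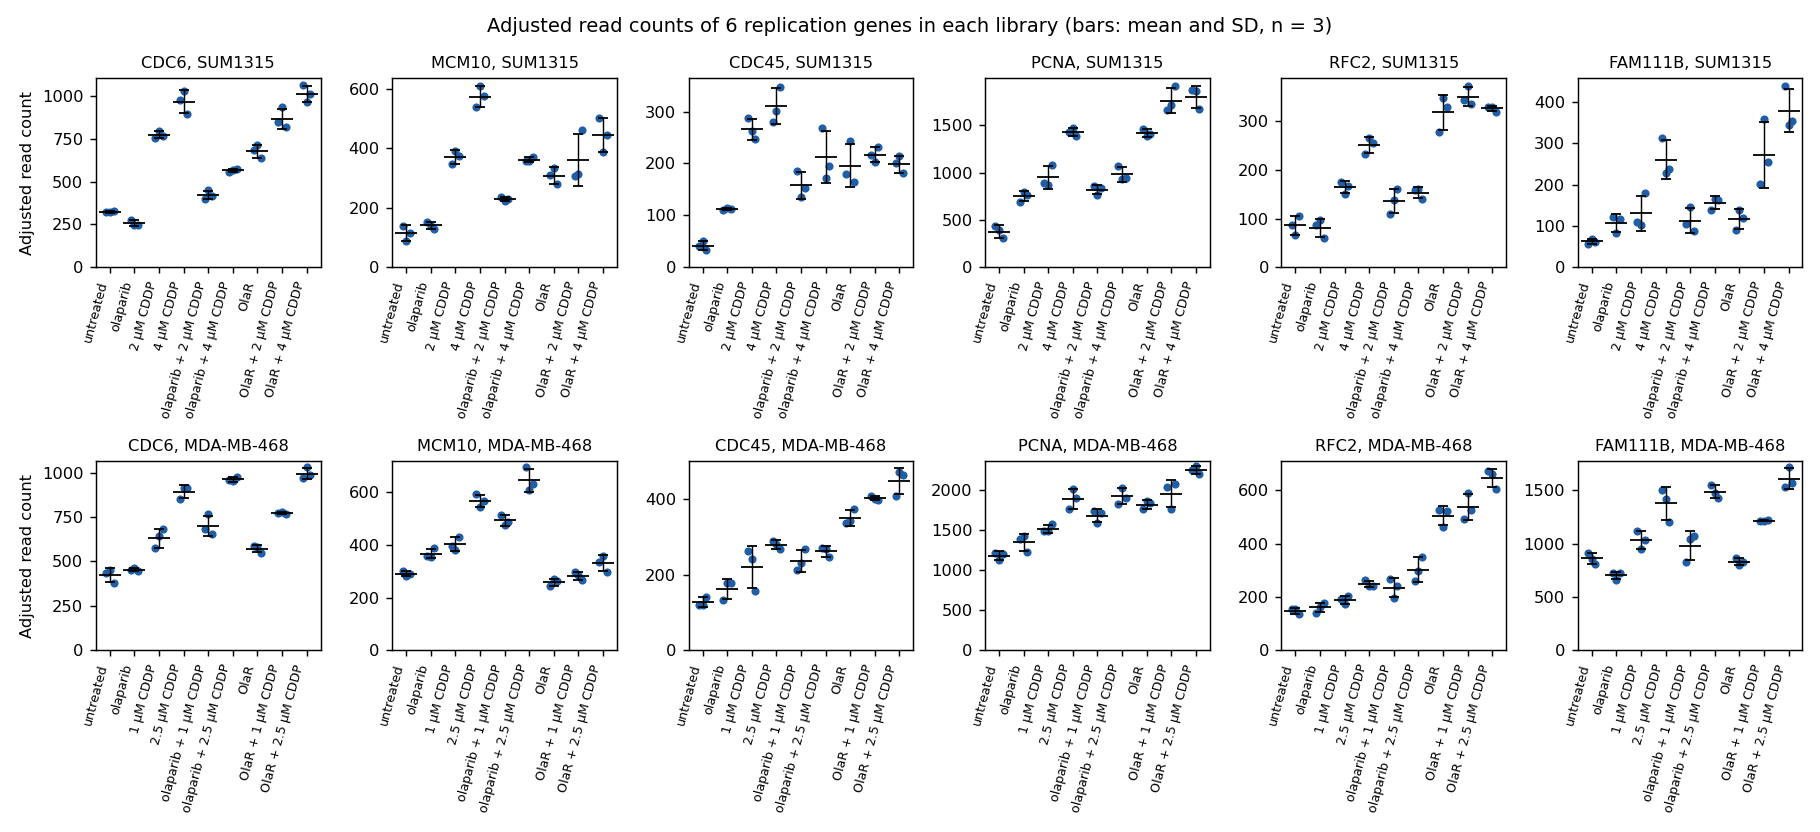
Adjusted read count (axis from 0) of CDC6, MCM10, CDC45, PCNA, RFC2 and FAM111B in each library, with the mean and SD (n = 3), in the 9 conditions of SUM1315 (top) and MDA-MB-468 (bottom). In SUM1315 the CDDP libraries of CDC6 lie above the untreated ones with or without olaparib, and RFC2 has its highest means in the 3 OlaR conditions of both lines.

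Olaparib alone raised a larger share of the set than of all genes. The share that fell was below that of all genes in SUM1315 and near it in MDA-MB-468. In SUM1315, 16 members (37.2%) rose and 4 (9.3%) fell, against 18.9% and 17.1% of all genes tested, with a median of 0.20. In the fit of only the groups compared, 10 rose and 3 fell there. In MDA-MB-468, 14 (32.6%) rose and 5 (11.6%) fell, against 12.4% and 9.11%, with a median of 0.10. The firing genes held 5 of the members that rose in each line, while no MCM2-7 subunit rose in either. By contrast, 21 of 22 G2/M genes rose in SUM1315, with a median of 0.96, and 18 in MDA-MB-468, with a median of 0.49.

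In SUM1315 the largest rise with olaparib was that of CDC45, from 41.3, 50.6 and 32.2 to 109, 113 and 112 adjusted reads (1.43 ± 0.17, adjusted p = 5.8e-08). PCNA went from 434, 390.1 and 304 to 690.2, 797 and 764 (1.01 ± 0.11, adjusted p = 3.7e-09), and ORC1 from 33.3, 38.2 and 20.8 to 61.6, 71.9 and 57.96 (1.07 ± 0.21). PRIM2 went from 21.4, 30.95 and 20.7 to 48.5, 44.8 and 66.96 (1.10 ± 0.25). These 4 were the members changed at least 2-fold, and their groups did not overlap. Those that fell were the helicase subunit MCM3 (455, 446 and 499.6 adjusted reads with olaparib, -0.45 ± 0.10, adjusted p = 0.000878), CDC6 (276, 248 and 246, -0.34 ± 0.09), RFC3 (-0.45 ± 0.12) and the loader subunit RFC4 (396, 419 and 391 untreated and 268, 242 and 292 with olaparib, -0.59 ± 0.13, adjusted p = 0.000403). Without replicate 3 of either the untreated or the olaparib libraries, 13 members rose and 4 fell.

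In MDA-MB-468 no member changed 2-fold with olaparib. GINS4 rose from 146, 169 and 184 to 283, 294 and 248 adjusted reads (0.72 ± 0.10, adjusted p = 7.8e-08), and POLA2 from 323, 273 and 245 to 448, 490.1 and 437 (0.71 ± 0.09, adjusted p = 4e-09). The smallest p among those that fell belonged to MCM6, from 458, 458 and 496 to 374, 376 and 383 (-0.32 ± 0.08, adjusted p = 0.00237), and FAM111B, from 915, 858 and 808 to 720.3, 661 and 721 (-0.29 ± 0.08, adjusted p = 0.00338). The groups were apart in these 4 genes. MCM5, DBF4 and FEN1 also fell. The 9 members (20.9%, against 6.22% of the genes tested in both lines) that rose in both lines were ORC6, CDT1, CDC45, GINS1, GINS2, GINS4, PCNA, RFC5 and POLE2. RFC3 and FAM111B were called in opposite directions.

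When CDDP was added to olaparib, the set rose again, and none of its members fell in any of these 4 comparisons. In SUM1315, 18 members rose with 2 µM CDDP, against 2.09% of all genes (and 1.67% lower), and 28 with 4 µM, against 4.35% (4.09% lower), with medians of 0.35 and 0.56. In MDA-MB-468, 23 rose with 1 µM CDDP, against 2.3% (2.97% lower), and 35 with 2.5 µM, against 10.1% (13.1% lower), with medians of 0.32 and 0.53. At the higher dose 26 members (60.5%) rose in both lines, against 2.2% of the genes tested in both. They were 92.9% of the members that rose in SUM1315, beside 81.4% of all members that rose in MDA-MB-468, and 74.3% of those that rose in MDA-MB-468, beside 65.1% of all members that rose in SUM1315. In the G2/M list, 2 of 22 genes were higher and 6 lower in SUM1315, and none were higher and 20 lower in MDA-MB-468. Without replicate 3 of the SUM1315 olaparib libraries, 12 members rose with 2 µM CDDP and 24 with 4 µM. Over all SUM1315 fits without a single library these counts ran from 12 to 15 and from 19 to 24. In the fit of only the groups compared, the counts at the lower dose were 3 in SUM1315 and 10 in MDA-MB-468.

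CDC6 had the smallest p at each dose in both lines. In SUM1315 it stood at 276, 248 and 246 adjusted reads with olaparib, 401, 449.5 and 416 with 2 µM CDDP added (0.72 ± 0.09, adjusted p = 7.9e-06) and 558, 566 and 576 with 4 µM (1.14 ± 0.09, adjusted p = 4e-11). In MDA-MB-468 it stood at 449.8, 461 and 447 with olaparib, 684, 764 and 653 with 1 µM CDDP added (0.62 ± 0.07, adjusted p = 1.4e-08) and 960.1, 950.4 and 977 with 2.5 µM (1.09 ± 0.07, adjusted p = 2.3e-17). No library of CDC6 overlapped between olaparib with and without CDDP. MCM10 in SUM1315 went from 152, 139.7 and 128 to 356, 356 and 371 with 4 µM (1.36 ± 0.15, adjusted p = 7.5e-08), and RFC3 from 240.3, 221 and 211 to 362, 421 and 427 with 2 µM (0.84 ± 0.12, adjusted p = 5.3e-05). CDT1 in MDA-MB-468 went from 717, 774 and 681 to 1099, 949 and 966 with 1 µM (0.47 ± 0.07, adjusted p = 4.6e-06). These groups were apart too. FAM111B in MDA-MB-468 went from 720.3, 661 and 721 to 1553, 1476 and 1429 with 2.5 µM (1.08 ± 0.08, adjusted p = 1.9e-16), and it and CDC6 were the 2 members that doubled in that line.

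In SUM1315, 6 members at least doubled with 4 µM CDDP on olaparib, and besides CDC6 and MCM10 they served loading, firing and chromatin. ORC6 stood at 176, 182 and 283 adjusted reads with olaparib and 461, 481 and 451 with CDDP added (1.15 ± 0.18). GINS4 stood at 67.1, 70.4 and 96.9 and 199, 143 and 163 (1.10 ± 0.17), and CHAF1A at 220.4, 191 and 263 and 466, 469 and 427 (1.02 ± 0.13). Their libraries did not overlap. UHRF1 stood at 15.7, 28.4 and 26.98 and 63.6, 59.6 and 33.6 (1.10 ± 0.35, adjusted p = 0.046), and this call was lost without any of 4 single libraries, replicates 1 and 2 of either group, where the log2 fold change lay between 0.84 and 1.25. MCM5, MCM6, RFC5, PRIM2 and DBF4 changed by 0.17 ± 0.13, -0.06 ± 0.12, 0.15 ± 0.15, -0.16 ± 0.25 and 0.16 ± 0.16 when 4 µM CDDP was added to olaparib, and none of these 5 passed the test.

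Read the other way, olaparib added to 4 µM CDDP lowered 22 members in SUM1315 and raised none, against 6.52% of all genes lower and 6.32% higher. All 43 log2 fold changes were negative, with a median of -0.50. All 6 MCM2-7 subunits fell, from -0.51 ± 0.09 for MCM4 to -0.82 ± 0.13 for MCM5. MCM7 went from 1795, 1800.3 and 1674 adjusted reads with 4 µM CDDP to 1124, 1169 and 1042 with olaparib added (-0.66 ± 0.08, adjusted p = 1.1e-06). CDC6 went from 978, 1029.7 and 898 to 558, 566 and 576 (-0.77 ± 0.09, adjusted p = 2.9e-07). The groups did not overlap in either gene. Both fork protection genes fell as well, with log2 fold changes of -0.36 ± 0.11 for TIMELESS and -0.78 ± 0.20 for TIPIN. Only 1 of 22 G2/M genes fell and none rose. Without replicate 3 of olaparib with 4 µM CDDP, 14 members fell.

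In MDA-MB-468 olaparib added to 2.5 µM CDDP lowered 3 members and raised 1, against 7.29% and 4.63% of all genes, with a median of 0.008. MCM2 went from 1918, 1940.4 and 1927 adjusted reads to 1608, 1727 and 1679.6 (-0.21 ± 0.06, adjusted p = 0.0256), and CDT1 from 1319.6, 1401 and 1453 to 1221, 1175 and 1193 (-0.22 ± 0.07, adjusted p = 0.0334). Both calls were lost without single libraries, and the count of called members was then 1 to 6. GINS2 fell by 0.28 on the log2 scale. MCM8 rose from 207, 171 and 163 to 270.4, 258 and 246 (0.52 ± 0.12, adjusted p = 0.00243), while in SUM1315 it fell by 0.50 on that scale. The difference between the lines was not tested.

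OlaR cells, kept in olaparib, were compared with parental cells given olaparib overnight. In SUM1315, 28 members were higher and 2 lower in OlaR cells, against 21.6% and 25.7% of all genes tested, with a median of 0.66. In MDA-MB-468, 22 were higher and 6 lower, against 23.6% and 27.9%, with a median of 0.24. At least 2-fold higher were 14 of 43 members in SUM1315, against 7.52% of all genes. In MDA-MB-468 only 2 of 43 were, a smaller share than the 7.13% of all genes. The olaparib doses and the time in the drug differed between the groups, so that these and the resistance cannot be told apart. Every OlaR library also had fewer reads than any parental library of its line, and the batches are not known. A technical difference therefore cannot be told apart from the resistance either. The G2/M list had 5 genes higher and 9 lower in SUM1315 and none higher and 15 lower in MDA-MB-468.

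All 6 subunits of the helicase were higher in OlaR SUM1315 cells, with a median of 1.11. MCM4 stood at 447, 465 and 443 adjusted reads in olaparib-treated parental cells and 1110.3, 1217 and 1252 in OlaR cells (1.40 ± 0.09, adjusted p = 4e-14). MCM7 stood at 806, 820.0 and 728 and 1839, 1834 and 1891 (1.24 ± 0.08), and MCM3 at 455, 446 and 499.6 and 1007, 1168 and 998 (1.18 ± 0.10). In each case the OlaR libraries lay above the parental ones. MCM6 stood at 234, 232 and 277 and 538, 505 and 485 (1.04 ± 0.12). CDC6 stood at 276, 248 and 246 and 683, 712 and 639 (1.40 ± 0.09, adjusted p = 1.7e-14). The largest difference of the set was that of RFC2, a loader subunit, at 86.03, 96.9 and 60.95 and 278, 348 and 328 (1.98 ± 0.17, adjusted p = 1.5e-11).

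Firing, polymerase and chromatin genes made up the rest of the 14. MCM10 stood at 152, 139.7 and 128 adjusted reads in the parental and 309.7, 334 and 278 in the OlaR libraries (1.13 ± 0.15). GINS1 stood at 177, 171 and 181 and 407, 413 and 431 (1.24 ± 0.12), and GINS4 at 67.1, 70.4 and 96.9 and 228, 192 and 181 (1.36 ± 0.17). All OlaR libraries of these were above the parental ones. POLA2 stood at 108, 99.7 and 92.9 and 191, 221 and 215 (1.05 ± 0.14). POLD1 stood at 115, 120.2 and 122 and 244, 213 and 268 (1.01 ± 0.15), and POLE2 at 57.03, 58.1 and 48.96 and 126, 99.1 and 108 (1.00 ± 0.19). The polymerase groups were apart too. UHRF1 stood at 15.7, 28.4 and 26.98 and 69.4, 65.7 and 58.5 (1.45 ± 0.35), and CHAF1A at 220.4, 191 and 263 and 624, 578 and 552 (1.39 ± 0.13). The 2 members lower in OlaR cells were the large loader subunit RFC1, at 1229, 1363 and 1626 and 910.3, 643 and 687 (-0.92 ± 0.12, adjusted p = 2.1e-07), and the kinase CDC7, at 105, 124 and 98.9 and 88.4, 58.6 and 79.3 (-0.54 ± 0.19, adjusted p = 0.0185). The call of CDC7 was lost without replicate 2 of either group, with -0.37 and -0.45.

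In MDA-MB-468, RFC2 again had the largest difference, at 140.1, 163 and 177 adjusted reads in olaparib-treated parental cells and 527, 463 and 522 in OlaR cells (1.65 ± 0.11, adjusted p = 2.8e-18). CDC45 stood at 132, 177 and 177 and 336, 341 and 374 (1.12 ± 0.12). RFC1 stood at 734, 680.2 and 661 and 1189, 1240.2 and 1145 (0.78 ± 0.07, adjusted p = 2.6e-14), against the direction in SUM1315. The groups did not overlap in any of the 3. The lowest p among the members that were lower in OlaR cells belonged to GMNN, at 1136, 1129 and 1178 and 873, 825 and 837 (-0.44 ± 0.06, adjusted p = 1.1e-08), and FEN1, at 1652, 1456 and 1566 and 1041, 1106 and 998 (-0.57 ± 0.06, adjusted p = 1.9e-12). MCM10, GINS3, POLA2 and POLE2 were lower as well. In both lines 17 members (39.5%) were higher, against 8.25% of the genes tested in both. They were 60.7% of the members higher in SUM1315, beside 51.2% of all members higher in MDA-MB-468, and 77.3% of those higher in MDA-MB-468, beside 65.1% of all members higher in SUM1315. These 17 held 5 MCM2-7 subunits and the loader subunits RFC2, RFC3 and RFC4. GMNN, MCM10, RFC1, POLA2, POLE2 and FEN1 were called in opposite directions in the lines.

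CDDP added to OlaR cells raised members of the set in both lines. In SUM1315, 4 rose and none fell with 2 µM CDDP, against 0.548% and 0.876% of all genes tested, and 16 rose and 1 fell with 4 µM, against 7.13% and 9.61%, with medians of 0.21 and 0.30. In MDA-MB-468, 12 rose and none fell with 1 µM, against 1.84% and 2.91%, and 24 rose and none fell with 2.5 µM, against 7.43% and 11.2%, with medians of 0.15 and 0.25. The 12 members (27.9%, against 1.68% of the genes tested in both lines) that rose in both lines at the higher dose were MCM3, MCM4, ORC6, CDC6, CDT1, MCM10, GINS3, PCNA, RFC1, POLD3, FEN1 and FAM111B. No G2/M gene rose in OlaR MDA-MB-468 cells at that dose and 16 of 22 fell, while in SUM1315 1 rose and 5 fell. The 4 calls at 2 µM in SUM1315 were 0 in the fit of only the groups compared and 1 to 4 with single libraries left out.

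FAM111B had the largest rise in OlaR cells of both lines. In SUM1315 its libraries were at 90.2, 139 and 119 adjusted reads in OlaR cells, 202, 359.5 and 254 with 2 µM CDDP (1.20 ± 0.22, adjusted p = 0.0021) and 439, 344 and 354 with 4 µM (1.71 ± 0.22, adjusted p = 9.9e-07). In MDA-MB-468 they were at 865, 803 and 822, 1207, 1214 and 1221 with 1 µM (0.55 ± 0.08, adjusted p = 1.4e-05) and 1529, 1718 and 1571 with 2.5 µM (0.95 ± 0.08, adjusted p = 6.5e-14). It was the only member that doubled with CDDP in OlaR cells, in SUM1315, and in both lines its CDDP libraries were all above those without CDDP. CDC6 in SUM1315 went from 683, 712 and 639 to 1062, 965 and 1010.3 (0.58 ± 0.09, adjusted p = 2e-05). In MDA-MB-468 it went from 589, 578 and 547 to 967, 1030.1 and 986 (0.80 ± 0.07, adjusted p = 3e-12). The groups of CDC6 did not overlap either.

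The other members with the smallest p were CDT1 in SUM1315, from 368, 360.0 and 315 in OlaR cells to 601, 415 and 543 with 2 µM CDDP (0.56 ± 0.12, adjusted p = 0.00623), a call lost without replicate 1 of the CDDP or replicate 3 of the OlaR libraries, and FEN1 in MDA-MB-468, from 1041, 1106 and 998 to 1303, 1350.2 and 1362 with 1 µM (0.35 ± 0.06, adjusted p = 5.7e-05). POLD1 in SUM1315 was the member that fell, from 244, 213 and 268 to 161, 184 and 175 with 4 µM (-0.47 ± 0.15, adjusted p = 0.0268), and the call was lost without replicate 1 or 3 of either group. MCM7 in OlaR SUM1315 cells, already at 1839, 1834 and 1891 adjusted reads, stood at 1796, 1956 and 2011 with 4 µM CDDP (0.05 ± 0.08, adjusted p = 0.749). RFC2 stood at 278, 348 and 328 and 329, 330.0 and 319 (0.04 ± 0.17, adjusted p = 0.904).

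The higher-dose effect of CDDP was compared between OlaR and olaparib-treated parental cells by testing its difference, OlaR minus parental. The olaparib doses differed between these cells, and their libraries without CDDP also gave the comparison of OlaR with olaparib-treated cells. In SUM1315 this difference was negative for 11 members and positive for 1 at adjusted p at or under 0.05, against 4.41% and 1.99% of all genes, with a median of -0.19 and 30 of 43 values below 0. In MDA-MB-468 it was negative for 13 and positive for none, against 7.47% and 7.58%, with a median of -0.27 and 35 values below 0. MCM7, CDC6, MCM10, RFC2 and CHAF1A, or 11.6% of the members against 1.52% of the genes tested in both lines, were called in both. All 11 negative members of SUM1315 were also called higher in OlaR than in olaparib-treated cells without CDDP, beside 65.1% of all 43 members. In MDA-MB-468, GMNN and MCM10 were lower there, CDC7 and POLA1 not called, and the rest of the 13 higher, beside 51.2% of all members. The libraries without CDDP enter both comparisons with opposite signs, so such an overlap is favoured by construction. With the higher dose the set's median above untreated cells was 1.30 in OlaR and 0.85 in olaparib-treated SUM1315 cells. In MDA-MB-468 these medians were 0.62 and 0.60. The part of the starting level in these differences was not tested.

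LIG1 had the smallest p in SUM1315. It went from 151, 146 and 109.9 to 209.5, 261 and 239.5 adjusted reads with 4 µM CDDP in parental cells and from 224, 225 and 216 to 159.8, 205 and 162 in OlaR cells, a difference of -1.15 ± 0.22, adjusted p = 0.000898. POLD1 went from 115, 120.2 and 122 to 189.7, 164 and 203 and from 244, 213 and 268 to 161, 184 and 175, a difference of -1.10 ± 0.21, adjusted p = 0.00118. For both genes CDDP was followed by higher means in parental and lower means in OlaR cells. FAM111B was the exception in the other direction, from 123, 81.8 and 117 to 138, 166 and 164 and from 90.2, 139 and 119 to 439, 344 and 354 (1.16 ± 0.31, adjusted p = 0.0205), a call lost without replicate 1 of any of the 4 groups. In MDA-MB-468 RFC3 had the smallest p, from 1395, 1286 and 1497 to 1979.6, 2042 and 2099 in parental and from 1822, 1789 and 1861 to 1921, 1958 and 2107 in OlaR cells (-0.42 ± 0.08, adjusted p = 0.000118). CHAF1A followed, from 296, 310.0 and 340.3 to 632, 513 and 538 and from 456, 447 and 524 to 566, 610.3 and 513 (-0.58 ± 0.12, adjusted p = 0.000502). The G2/M list had 3 genes with a positive and 1 with a negative difference in SUM1315, and 12 positive and none negative in MDA-MB-468.

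**Figure D4:**
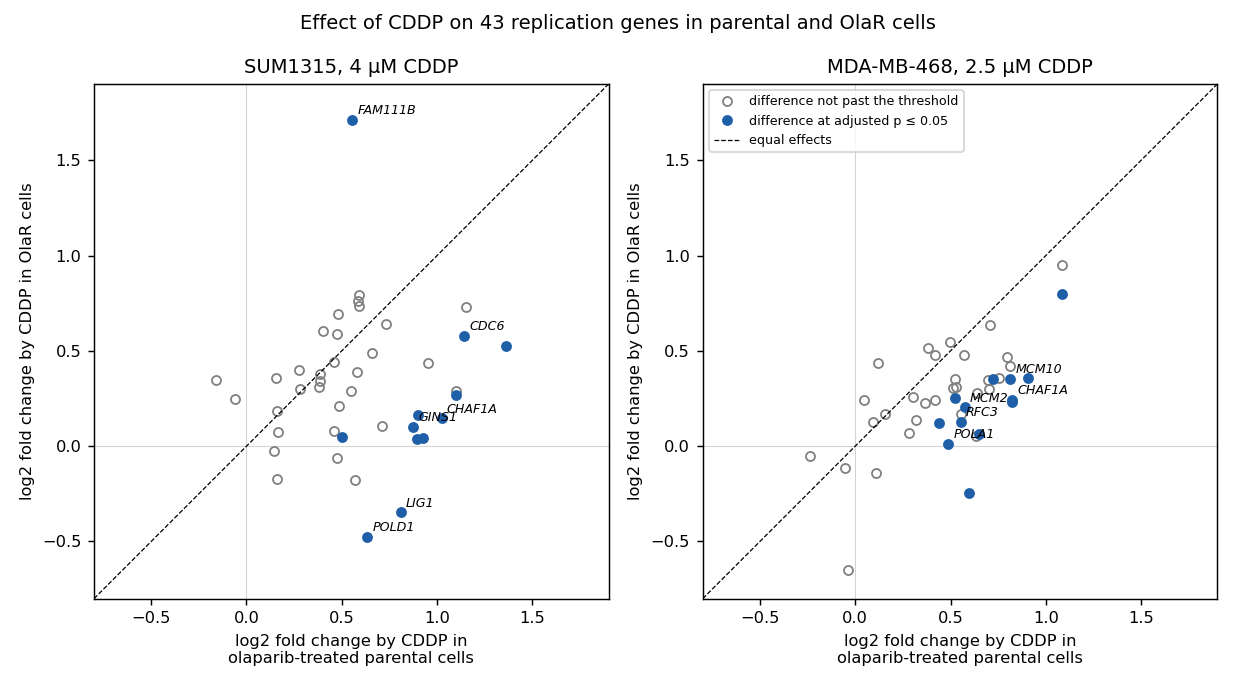
Log2 fold change by the higher CDDP dose in olaparib-treated parental cells (x axis) and in OlaR cells (y axis) for the 43 replication genes in each line, with filled points where the difference had an adjusted p at or under 0.05 and names for those of smallest p and FAM111B. Of the filled points, 11 of 12 in SUM1315 and all 13 in MDA-MB-468 lie under the dashed line of equal effects.

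Over the 12 comparisons that added CDDP, 6 in each line, CDC6 and CDT1 were the 2 members that rose in all 12. MCM4, ORC6 and RFC1 rose in 11, and MCM10, POLA2 and FAM111B in 10. At the other end, MCM6, ORC2, DBF4 and PRIM2 rose in at most 2. Several of these comparisons share untreated, olaparib or OlaR libraries, so they are not independent. Adjusted reads are given only as ranges for MCM5, ORC2, POLA1, POLD3 and TIPIN, since none of them changed 2-fold in any comparison or was among the smallest p. Over all libraries their adjusted reads ran, for SUM1315, from 207 to 519.7 for MCM5, 148 to 294 for ORC2, 159 to 303 for POLA1, 163 to 394 for POLD3 and 63.2 to 219.6 for TIPIN. The same ranges for MDA-MB-468 were 210.1 to 619 for MCM5, 74.99 to 152 for ORC2, 415 to 655 for POLA1, 241 to 483 for POLD3 and 104 to 215 for TIPIN.

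Genes of the same pathway outside the set were counted in lists of 30 other replication genes and of 12 G1/S regulators and nucleotide enzymes, of which 11 passed the filter in SUM1315. With 4 µM CDDP in SUM1315, 24 of the 30 rose and none fell (median 0.80), as did 10 of the 11 (median 1.25). With 2.5 µM in MDA-MB-468, 19 of the 30 rose and none fell (median 0.33), as did 11 of the 12 (median 0.82). Of all genes tested, 22.2% rose and 21.7% fell in SUM1315, and 13.3% and 11.8% in MDA-MB-468. When CDDP was added to olaparib at the higher dose, 12 of the 30 and 5 of the 11 rose in SUM1315 and 14 and 11 of 12 in MDA-MB-468, where 2 of the 30 fell. The shares of all genes were 4.35% higher and 4.09% lower in SUM1315, and 10.1% and 13.1% in MDA-MB-468. In OlaR cells with the higher dose, 7 and 6 rose in SUM1315, where 1 of the 30 fell, and 11 and 8 rose in MDA-MB-468. Here the shares of all genes were 7.13% higher and 9.61% lower in SUM1315, and 7.43% and 11.2% in MDA-MB-468. Olaparib added to 4 µM CDDP lowered 4 of the 30 and 5 of the 11 in SUM1315 and raised none. It lowered 6.52% of all genes and raised 6.32%. OlaR cells were higher than olaparib-treated parental cells for 14 of the 30 and 8 of the 11 in SUM1315, with 1 and none lower, and for 9 and 6 in MDA-MB-468, with 4 and 3 lower. Against these stood 21.6% of all genes higher and 25.7% lower in SUM1315, and 23.6% and 27.9% in MDA-MB-468. The 9 of the 30 higher in MDA-MB-468 were 30%, near the share of all genes. The higher-dose CDDP effect, OlaR minus olaparib-treated parental cells, was called negative for 1 of the 30 (median -0.02) and 2 of the 11 (0.024) in SUM1315. None was positive there, and of all genes 4.41% were negative and 1.99% positive. In MDA-MB-468 the difference was negative for 3 and positive for 4 of the 30 (median -0.028). These were 10% and 13.3%, near the 7.47% and 7.58% of all genes. Of the 12, 4 were negative and none positive (median -0.317).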

How the data were processed

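RNA from 54 libraries was sequenced from transcript 3′ ends in multiplexed batches of 27, and which libraries shared a batch is not given in the sources used here. Per the labels and the study's methods, the authors used CASAVA 1.8.2, FastQC, STAR, HTSeq and edgeR with hg38. The deposited values are a signal, adjusted read counts that the authors scaled with edgeR to a common library size of 5585170, and not whole reads. Whole reads were recovered for 100% of 1483380 values (tolerance 1e-06 when adjusted forward again) and gave the depths. Genes that reached 10 in 3 or more libraries of a line were fitted on log2(value + 1) with limma 3.58.1 (trend, moderated test, R 4.3.3), with all 27 libraries of the line, no block, and Benjamini-Hochberg adjustment over all genes tested. Since whole reads were recovered, the quasi-likelihood test of edgeR 4.0.16 was added as an alternative, chosen after seeing the data. Over the 10 comparisons of a line it called 89 to 5944 genes in SUM1315 and 377 to 6795 in MDA-MB-468, and limma 187 to 6203 and 619 to 6702. The procedure was tested on simulated data.

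The members and the gene lists were chosen with earlier results of these data known. Values by library were given for members changed at least 2-fold at adjusted p at or under 0.05 in any comparison other than the difference between OlaR and parental cells, and for up to 2 members of smallest p in each direction of each comparison, 38 members in all. Where a member qualified in many comparisons, its libraries are printed for those with the larger change. The gene lists outside the set are given by counts. Other settings were a pseudocount of 4, no filter, the replicate number as a block, only the groups compared, median-of-ratios scaling, a 2-fold limit and leaving out each library. Promoters came from RefSeq (GRCh38.p14) and were read with Python 3.11.15.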

Additional observations from a re-analysis of the deposited data

Results flagged for a closer look

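The effect of the higher CDDP dose differed between OlaR cells and olaparib-treated parental cells for 25 values over both lines, by the test of the difference itself in limma at adjusted p at or under 0.05. Values are log2 differences, OlaR minus parental, with 3 libraries in each of 4 groups, so a negative value stands for a smaller rise or a fall in OlaR cells. In SUM1315 the helicase and loading genes MCM7 and CDC6 differed by -0.453 and -0.564. The firing genes MCM10, CDC45, GINS1 and GINS4 differed by -0.839, -0.858, -0.771 and -0.833. The fork genes RFC2, POLA2, POLD1 and LIG1 differed by -0.883, -0.735, -1.105 and -1.154, the histone chaperone subunit CHAF1A by -0.875, and FAM111B by 1.157.

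In MDA-MB-468 the helicase and loading genes MCM2, MCM7, CDC6, CDT1 and GMNN differed by -0.37, -0.317, -0.288, -0.371 and -0.273. The repair gene MCM8 differed by -0.592, and the firing genes MCM10 and CDC7 by -0.459 and -0.843. The fork genes RFC2, RFC3, POLA1 and TIPIN differed by -0.549, -0.425, -0.475 and -0.588, and CHAF1A by -0.582. The adjusted p ran from 0.000118 for RFC3 to 0.0476 for CDC6, both in MDA-MB-468. FAM111B in SUM1315 was the only positive value of the 25 and lost its call without replicate 1 of any of the 4 groups, with 0.99 to 1.07. Without single libraries, 8 to 13 members were called in SUM1315 and 11 to 14 in MDA-MB-468. Besides FAM111B, only LIG1 and POLD1 in SUM1315 and RFC3 and CHAF1A in MDA-MB-468 were followed singly through those fits.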

How the results depend on the processing

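Of the 132 results for named members, all 132 held their direction and call under a pseudocount of 4, median-of-ratios scaling, the replicate block and the edgeR test, 3 lost the call without the filter and 3 with only the groups compared, and 26 of 822 fits without a single library lost it. No direction reversed. No pairing of libraries by replicate number was seen, though with 3 libraries per condition a weak one could be missed. Deviations of same-numbered libraries correlated by -0.098 to 0.163 in SUM1315 and -0.047 to 0.043 in MDA-MB-468. Of the 27 libraries of each line, 11 and 4 correlated best with their own number. With the replicate block 40 members were called with 4 µM CDDP in SUM1315 and 39 with 2.5 µM in MDA-MB-468, and no count moved by 1.5 times. Rescaling moved the median of all genes by at most 0.05 on the log2 scale.

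With only the groups compared, the called members were 13 for olaparib alone, 3 for 2 µM CDDP on olaparib and 0 for 2 µM CDDP in OlaR cells of SUM1315, and 10 for 1 µM CDDP on olaparib in MDA-MB-468. The edgeR test called 2 members for 2 µM CDDP in OlaR SUM1315 cells, where it called 89 genes and limma 187, and for 1 µM CDDP in OlaR MDA-MB-468 cells it called 377 genes and limma 619. Without the filter, 1 member was called for olaparib on 2.5 µM CDDP in MDA-MB-468. With a 2-fold limit in SUM1315, 4 members were called for olaparib alone, 0 and 6 for 2 and 4 µM CDDP on olaparib, 0 for olaparib on CDDP, 14 for OlaR cells, and 1 and 1 for 2 and 4 µM CDDP in OlaR cells. In MDA-MB-468 that limit left 0 for olaparib alone, 0 and 7 for 1 and 2.5 µM CDDP, 0 and 2 for these doses on olaparib, 0 for olaparib on CDDP, 2 for OlaR cells, and 0 and 0 for the doses in OlaR cells. Without single libraries the count ranged from 14 to 21 for olaparib on 4 µM CDDP and from 1 to 4 for 2 µM CDDP in OlaR cells of SUM1315, and from 1 to 6 for olaparib on 2.5 µM CDDP in MDA-MB-468. The low end of the first came without replicate 3 of olaparib with 4 µM CDDP. The second fell to 1 or 2 without replicate 1 or 2 of OlaR cells with 2 µM CDDP or replicate 2 or 3 of OlaR cells, and the last to 1 or 2 without any 2.5 µM CDDP library or replicate 2 or 3 of olaparib with 2.5 µM CDDP. Apart from the 2-fold limit and these smaller sets of genes or samples, the cause was not tested. UHRF1 had the fewest reads, which limits its precision.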
